A study of Mus musculus with 16 samples.

Results

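The genes described here are the Wnt ligands, the Frizzled receptors and named partners of the beta-catenin route, chosen by symbol alone. The deposited table held 40 of them among its 16383 genes: 11 ligands, 2 secretion factors, 10 Frizzled receptors, 2 coreceptors, 3 regulators of receptor turnover, 3 dishevelled genes, 4 genes of the destruction complex, beta-catenin itself and 4 TCF/LEF factors. Wnt1, Wnt2, Wnt3a, Wnt8a, Wnt8b, Wnt10a, Wnt10b, Wnt16 and Lgr5, 9 genes that the choice also covers, were not analysed here.

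Wnt proteins are secreted signals that act over short distances. They bind Frizzled receptors and the coreceptors Lrp5 and Lrp6, and dishevelled proteins then stop a destruction complex of Axin, Apc and Gsk3 from marking beta-catenin for degradation. Beta-catenin that escapes degradation enters the nucleus and works with the TCF/LEF DNA-binding proteins, which include Tcf7, Tcf7l1, Tcf7l2 and Lef1. In the testis the pathway is known for effects on the proliferation of undifferentiated spermatogonia, the mitotic germ cells that hold the stem cells, and some Frizzled receptors also act through routes that do not need beta-catenin.

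Undifferentiated spermatogonia were sorted from mice at day 10 after busulfan, a DNA-alkylating agent that depletes proliferating germ cells, given at 10 mg/kg to every group. Mice titled wild type (WT), whose column names carry Spry4ff, or titled Spry4 G-KO (KO), a germline knockout whose column names carry GCRT_Spry4KO, received either PD0325901, which blocks the MEK kinases upstream of ERK, at 2.5 mg/kg, or vehicle with 10% DMSO, each day for 7 days from day 3. The 4 groups are called WT vehicle, WT PD, KO vehicle and KO PD, and each held 4 libraries of polyA RNA. Spry4 encodes a feedback inhibitor of ERK signalling. The tag GCRT is found in KO names alone, and its effect and that of losing Spry4 cannot be told apart. The sources used here give neither what drives the deletion, nor the age of the mice, nor the markers of the sort. Separate animals for the libraries of a group are not stated either, so each p-value reflects only how much these libraries vary.

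The values are FPKM, in which the fragments of a gene are divided by its length and by the size of the library, so levels can be set side by side between genes. The library sizes recovered from the low values ran from 23366000 to 36631000 reads, and 22057000 to 37623000 reads a library fell in the listed genes. Zbtb16, a factor of undifferentiated spermatogonia, lay between 85.6 and 125 FPKM and the germ cell helicase Ddx4 between 68.8 and 144 FPKM, so the labelled cells' markers were present in all 16 libraries. Spry4 lay between 15.9 and 27.4 FPKM in the WT libraries and between 7.28 and 19.3 FPKM in the KO libraries, which overlap. Contractile transcripts were also present in every library. The 14 genes of a contractile list, made up of smooth muscle and peritubular myoid genes, summed to 1318.6 FPKM in WT PD 2 and to 13144.2 FPKM in WT PD 3. Summed spermatid genes reached 2952.7 FPKM in KO vehicle 3 and at most 148.3 FPKM elsewhere, so results below are also given without that library where it changes them.

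The promoter windows of 4 members are printed here because the results below turn on how these genes moved together across libraries. They are RefSeq windows on build GRCm38.p6, from 250 bases before the start site to 50 bases after it, written 5′ to 3′ on the gene's strand. Capitals mark matches on either strand to CTTTGA or CTTTGT, cores of the sites that TCF/LEF factors bind, or to the CArG box, the site that serum response factor binds in contractile genes. Fzd7, Wnt5b and Tcf7l1 were higher, and Tcf7 lower, in contractile-rich libraries. All 4 printed windows hold a match, while the other windows of Wnt5b and Tcf7 hold none. Other members that followed the contractile genes, such as Fzd9, had a window without a match, and a link between matches and levels was not tested.
Fzd7 (chr1:59481897-59482196, plus strand): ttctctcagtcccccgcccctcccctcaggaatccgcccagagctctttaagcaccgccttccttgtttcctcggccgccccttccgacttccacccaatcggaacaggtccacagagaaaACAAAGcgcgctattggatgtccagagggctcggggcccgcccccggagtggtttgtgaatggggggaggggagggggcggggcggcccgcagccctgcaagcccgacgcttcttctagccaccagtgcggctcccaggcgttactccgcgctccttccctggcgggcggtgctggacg
Tcf7l1 (chr6:72788996-72789295, minus strand): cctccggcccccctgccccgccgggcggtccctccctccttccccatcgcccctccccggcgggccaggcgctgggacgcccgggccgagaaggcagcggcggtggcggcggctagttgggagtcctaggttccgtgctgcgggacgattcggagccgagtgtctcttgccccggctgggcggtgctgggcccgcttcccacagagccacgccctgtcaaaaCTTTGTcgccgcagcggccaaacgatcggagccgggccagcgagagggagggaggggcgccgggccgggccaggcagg
Wnt5b (chr6:119449337-119449636, minus strand): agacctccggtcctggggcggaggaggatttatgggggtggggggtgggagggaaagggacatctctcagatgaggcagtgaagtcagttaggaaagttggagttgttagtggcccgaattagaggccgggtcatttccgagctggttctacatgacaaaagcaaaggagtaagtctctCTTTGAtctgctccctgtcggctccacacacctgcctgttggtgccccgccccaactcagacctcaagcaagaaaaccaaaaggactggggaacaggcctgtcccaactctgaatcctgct
Tcf7 (chr11:52282546-52282845, minus strand): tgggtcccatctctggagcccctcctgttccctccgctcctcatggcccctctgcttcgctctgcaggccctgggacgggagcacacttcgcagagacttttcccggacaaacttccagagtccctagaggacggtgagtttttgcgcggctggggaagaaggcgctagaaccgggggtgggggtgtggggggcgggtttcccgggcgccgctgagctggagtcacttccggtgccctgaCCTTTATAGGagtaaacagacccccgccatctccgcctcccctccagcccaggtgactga

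The Fzd7 match is to CTTTGT, on the opposite strand, and lies 129 bases before the start site. The Tcf7l1 match is to CTTTGT at 28 bases before the start site, and the Wnt5b match is to CTTTGA at 71 bases before it in 1 of the windows of that gene. The Tcf7 match is to the CArG box at 10 bases before the start site, and the other RefSeq window of Tcf7 held no CArG match. RefSeq windows were found for 28 members, 38 windows in all. CTTTGA stood in 5 of these 38 windows (13.2%) and in 16% of all 32851 windows, CTTTGT in 6 (15.8%) and in 18.7%, and the CArG box in 3 (7.9%) and in 1.6%. A match is a description of the letters in the window and not a bound site, and matches to different motifs can share at most a single base.

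Beta-catenin was the most abundant member in every library, and the ligands were mostly near the floor. Over the 16 libraries Ctnnb1, which encodes beta-catenin (chr9:120929216-120960507), ran from 100 to 138 FPKM with a median of 110. Tcf7 (chr11:52252371-52283014), a TCF/LEF factor that is itself a known target of the pathway, came next at 58.9 to 86.8 FPKM. Of the FPKM summed over all genes of a library, 0.186% to 0.222% belonged to the members. The plot of levels by library shows all 40 members on 1 axis.

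**Figure D1:**
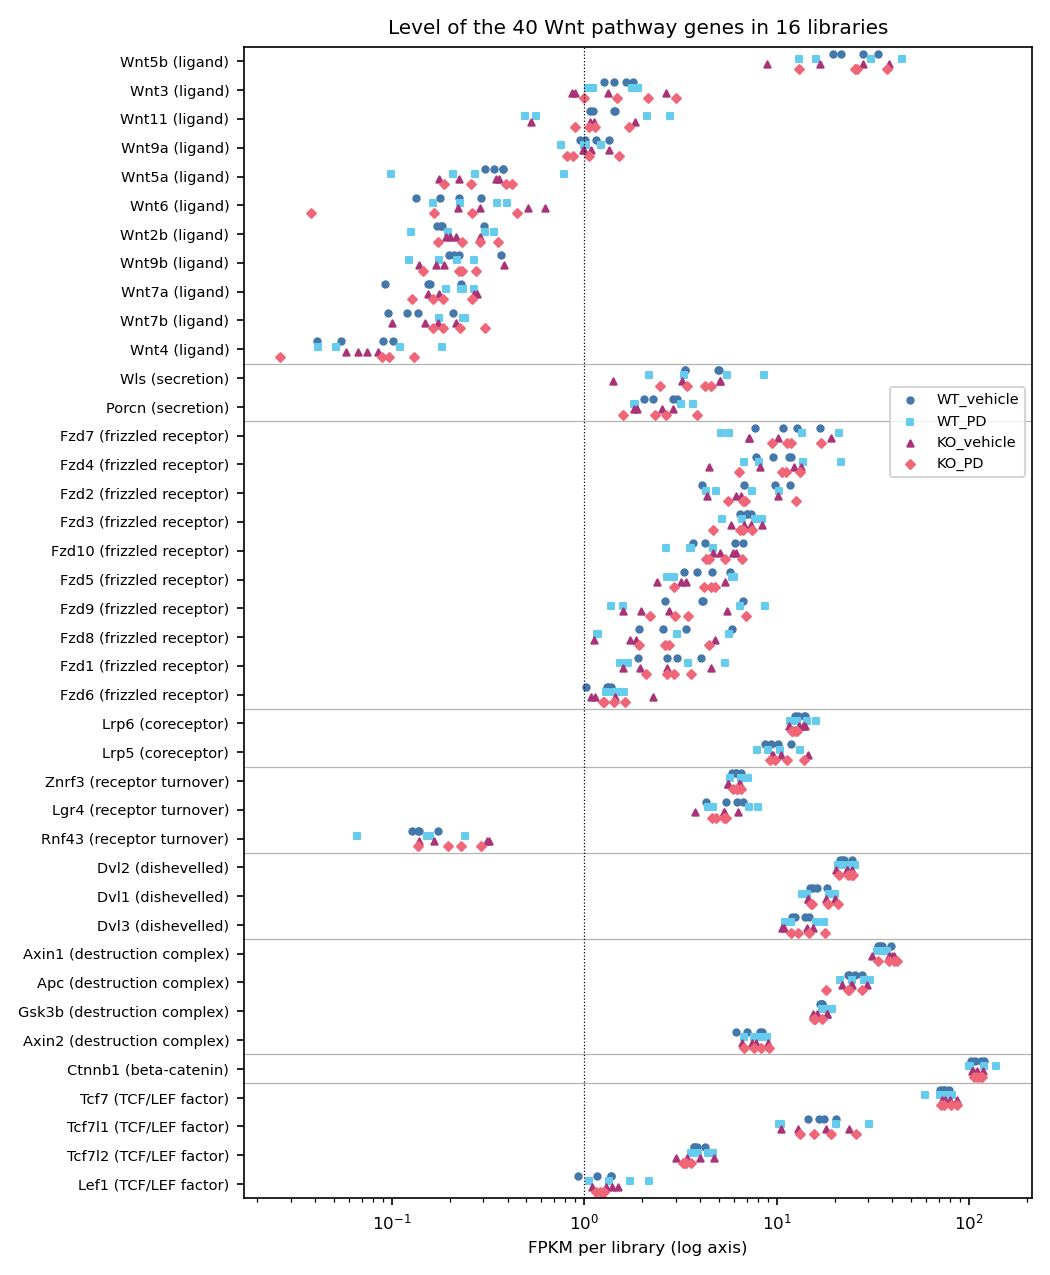
FPKM of each of the 40 members in each of the 16 libraries on a log axis, 1 symbol per library, with symbol and colour giving the group and members ordered by role and mean level. The dotted line marks 1 FPKM, and Ctnnb1 and Tcf7 lie highest while 7 ligands and Rnf43 lie below the line in every library.

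Among the 11 ligands only Wnt5b, a ligand best known for routes without beta-catenin, was abundant. Its level (chr6:119432531-119544347) ran from 8.87 to 44.9 FPKM with a median of 25.9, a 5.063-fold span. Wnt3, a ligand of the beta-catenin route, Wnt11, a ligand of planar polarity, and Wnt9a averaged 1.58, 1.28 and 1.07 FPKM. The other 7 ligands (Wnt2b, Wnt4, Wnt5a, Wnt6, Wnt7a, Wnt7b and Wnt9b) stayed below 1 FPKM in every library and were not tested. The estimated reads behind them ran from 3 to 28 for Wnt4, 2 to 39 for Wnt6 and 9 to 32 for Wnt7a, and were more for Wnt5a, whose highest libraries lay within the 59 to 375 reads of the tested Wnt11. No difference in these 7 ligands was tested. Porcn, the acyltransferase that lipid-modifies Wnt proteins, and Wls, their carrier to the cell surface, averaged 2.52 and 4.12 FPKM.

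All 10 Frizzled receptors in the table passed the filter of at least 1 FPKM in at least 4 libraries. Fzd7 ran from 5.16 to 21.0 FPKM (median 11.1) and Fzd4 from 4.48 to 21.5 FPKM (median 10.9), followed by Fzd3 with a median of 6.90 and Fzd2 with a median of 6.70. Fzd6 was the lowest, with a mean of 1.40 ± 0.29 FPKM (SD, n = 16). The order was not fixed: Fzd3 stood at 1.5 times Fzd7 in WT PD 2 and at 0.248 times Fzd7 in WT PD 3, so neighbours in the upper part of the order did not differ beyond their spread between libraries. The coreceptor Lrp6 had a median of 12.9 FPKM and Lrp5 one of 9.94, and the ratio of Lrp6 to Lrp5 ran from 0.917 to 1.62.

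Of the genes that set how long receptors stay at the surface, Znrf3, a ubiquitin ligase that removes Frizzled receptors, was steady at 5.58 to 7.11 FPKM. Its close relative Rnf43 stayed between 0.0662 and 0.319 FPKM and was not tested. Lgr4, a receptor for the R-spondins that hold this removal back, ran from 3.77 to 8.03 FPKM. The dishevelled genes, which carry the signal inside the cell, had medians of 23.3 FPKM for Dvl2, 15.8 for Dvl1 and 13.5 for Dvl3.

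In the destruction complex Axin1, the constant scaffold, had a median of 37.2 FPKM and Axin2, a scaffold that the pathway itself induces, one of 7.75. The ratio of Axin1 to Axin2 lay between 3.99 and 5.83 in all 16 libraries. Apc, the other scaffold, had a median of 24.5 FPKM, and the kinase gene Gsk3b one of 17.2. Among the TCF/LEF factors Tcf7 exceeded Tcf7l1, a factor known mainly as a repressor, in every library, by 1.94 times in WT PD 3 and by 7.94 times in WT PD 1. Tcf7l2 had a mean of 3.81 ± 0.502 FPKM (SD, n = 16) and Lef1 one of 1.33 ± 0.29. Levels from bulk RNA cannot tell fewer cells of a type from less RNA per cell, which touches every member.

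None of the 32 tested members differed between groups past the threshold of 0.05 on p-values adjusted over all 12907 genes tested. This held for KO against WT with vehicle and with inhibitor, for inhibitor against vehicle in each genotype, for the interaction of genotype and inhibitor, and for each factor pooled over the other. The background was the same: limma called 0 genes, or 0.0% of those tested, in each of the 7 comparisons. The number of members at an unadjusted p under 0.05 was 3 for KO PD against WT PD, 1 for WT PD against WT vehicle and 0 in the other 5, where all genes gave 605, 115 and at most 561. In simulated data for KO vehicle against WT vehicle, with the spread of these libraries, the same fit recovered 70% of log2 changes of 1. It recovered 89% of changes of 2, and 5.92% of the calls were false. The noise was drawn separately for each gene, with 100 genes changed at each size, whereas genes of these libraries moved together. The shares cover all changed genes and do not hold for a member of wide spread, such as Fzd9 (SE 0.51).

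**Figure D2:**
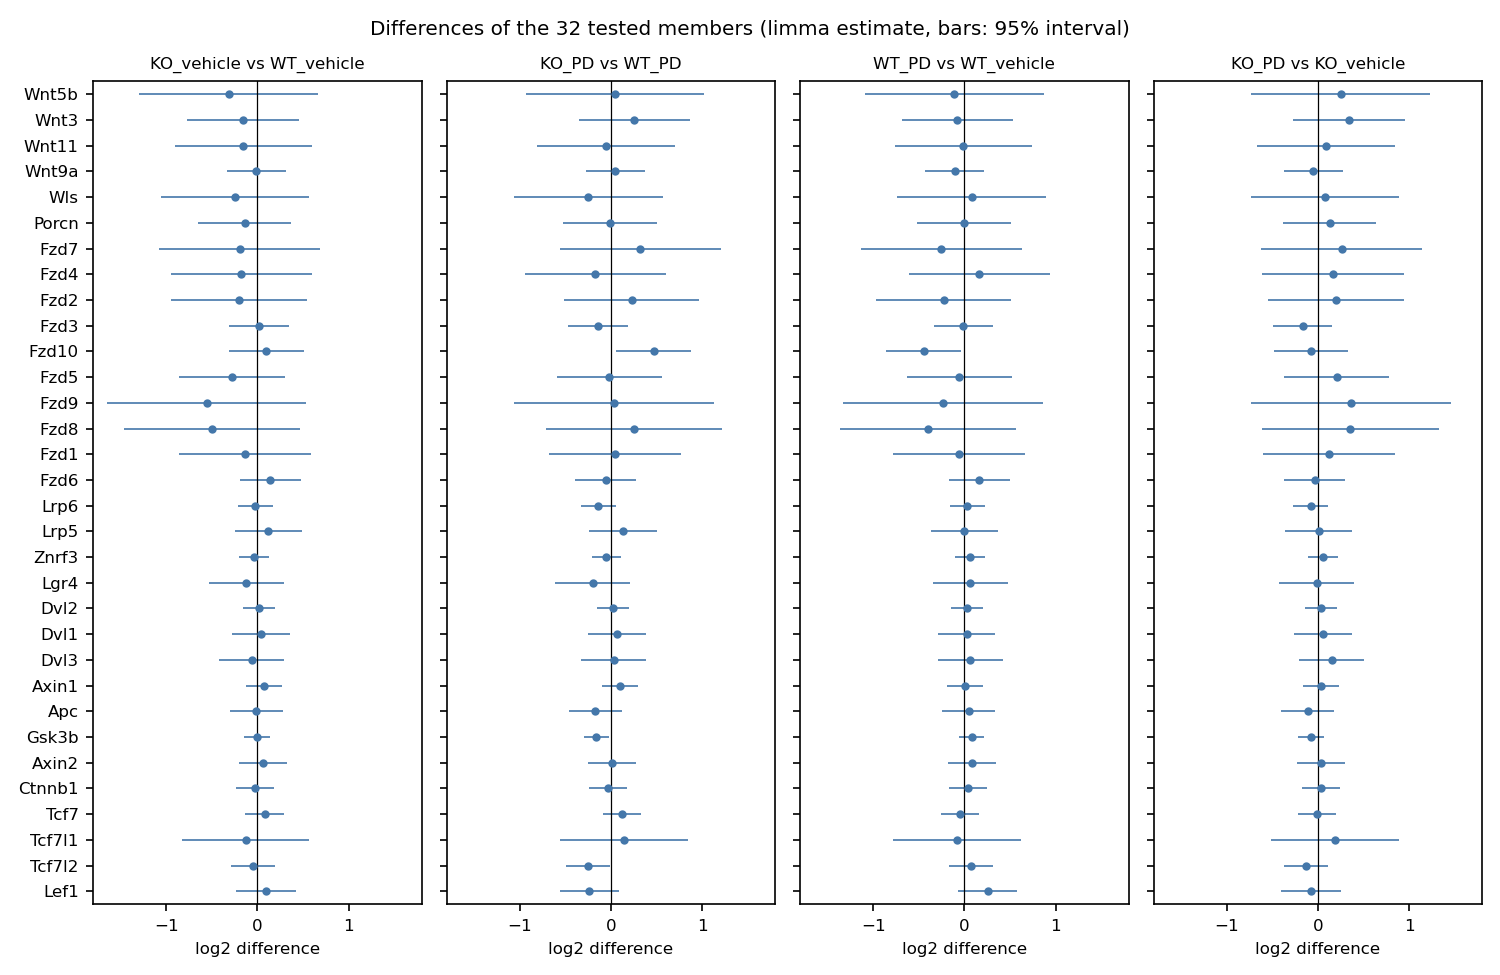
Log2 difference of each of the 32 tested members in the 4 comparisons of 2 groups, as the limma estimate on log2(FPKM + 0.5) with its 95% interval, members ordered by role. The intervals of the destruction complex and Ctnnb1 are narrow and near 0, and those of Fzd9, Fzd8 and Wnt5b are wide.

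Axin2 is the member most often read as a report of beta-catenin activity, and its levels overlapped across the groups. In the WT vehicle libraries Axin2 (chr11:108920349-108950783) read 8.37, 7.04, 8.21 and 6.14 FPKM, and in WT PD it read 7.62, 6.80, 8.94 and 8.16 FPKM. In the KO vehicle libraries it read 7.86, 7.49, 6.61 and 9.04 FPKM, and in KO PD 6.80, 7.64, 9.17 and 8.25 FPKM. Every group thus held libraries on both sides of the median of 7.75. The log2 difference was 0.06 (95% interval -0.21 to 0.32) for KO against WT with vehicle and 0.01 (-0.25 to 0.28) with inhibitor. For inhibitor against vehicle it was 0.08 (-0.18 to 0.34) in WT and 0.04 (-0.23 to 0.30) in KO. Each of these intervals leaves out a change of 0.5 on the log2 scale in either direction.

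Ctnnb1 transcript was as steady. It read 102, 119, 116 and 107 FPKM in WT vehicle, 102, 100, 138 and 120 in WT PD, 110, 104, 104 and 118 in KO vehicle, and 109, 115, 107 and 117 in KO PD. The WT PD group held both the lowest and the highest library. The log2 differences were -0.02 (95% interval -0.23 to 0.18) for KO against WT with vehicle, -0.03 (-0.24 to 0.18) with inhibitor, 0.04 (-0.17 to 0.25) for inhibitor in WT and 0.04 (-0.17 to 0.25) in KO. FPKM measures the transcript, while the pathway controls beta-catenin as a protein, which was not measured.

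With vehicle, the members with the smallest unadjusted p between KO and WT were Frizzled receptors of low level. They were Fzd8 (log2 difference -0.50, SE 0.45), Fzd9 (-0.56, SE 0.51) and Fzd5 (-0.28, SE 0.27), all with a limma adjusted p = 0.9998. Fzd9 read 2.64, 4.13, 6.70 and 4.08 FPKM in WT vehicle and 2.78, 1.98, 1.60 and 5.5 in KO vehicle, so the groups overlapped. The median difference of the members was -0.04 on the log2 scale, against a median of -0.01 over all genes. Of the 32 members 10 were higher and 22 lower in KO, while 47.2% of all genes were higher. With the contractile list as a term this tally turned, to 23 higher and 9 lower, while 54.7% of all genes were higher in that fit. The libraries of these 2 groups separated for 0 members, against 1.46% of all genes. The median log2 difference of the contractile list was -0.63 here, with 13 of its 14 genes lower in KO and none called. The fit with that term is given further on.

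With inhibitor, 3 members stood out by unadjusted p in KO against WT. Gsk3b, the kinase that marks beta-catenin, averaged 18.1 ± 0.921 FPKM (SD, n = 4) in WT PD and 16.1 ± 0.772 FPKM in KO PD, a log2 difference of -0.16 (SE 0.06, limma adjusted p = 0.988). It read 17.5, 17.3, 19.3 and 18.2 FPKM in WT PD and 17.3, 15.7, 15.7 and 15.7 FPKM in KO PD. KO PD 1 stood level with the lowest WT PD libraries, and the other KO PD libraries lay below all of them.

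Fzd10, a Frizzled receptor, was 3.62 ± 0.811 FPKM (SD, n = 4) in WT PD and 5.19 ± 1.06 FPKM in KO PD, a log2 difference of 0.47 (SE 0.19, limma adjusted p = 0.988). Its values were 2.67, 3.58, 4.65 and 3.57 FPKM in WT PD and 4.29, 5.43, 4.44 and 6.59 FPKM in KO PD, which overlap in 1 WT library. Tcf7l2, a TCF/LEF factor, was 4.41, 4.68, 3.91 and 3.60 FPKM in WT PD and 3.58, 3.35, 3.37 and 3.26 FPKM in KO PD, so all KO libraries lay below all WT libraries, with 3.58 FPKM in the highest KO library and 3.60 FPKM in the lowest WT library. Its log2 difference was -0.25 (SE 0.11, limma adjusted p = 0.988). Separation of the libraries was seen for this 1 member of 32 and for 2.28% of all genes, so 1 member is near the background. Here all 14 contractile genes were higher in KO, with a median log2 difference of 0.53 and none called.

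Between inhibitor and vehicle in WT, Fzd10 had the smallest p. It read 4.24, 3.67, 6.71 and 6.07 FPKM with vehicle against 2.67, 3.58, 4.65 and 3.57 with inhibitor, a log2 difference of -0.45 (SE 0.19, limma adjusted p = 0.9999). This comparison and KO PD against WT PD share the WT PD libraries, so the 2 differences of Fzd10 are not independent. Lef1, a TCF/LEF factor that is also a known target, averaged 1.21 ± 0.213 FPKM (SD, n = 4) with vehicle and 1.57 ± 0.482 with inhibitor (log2 difference 0.26, SE 0.15). Gsk3b had the third smallest p (0.08, SE 0.06). Libraries separated for 0 members and for 0.659% of all genes, and 14 of 14 contractile genes were lower with inhibitor, by a median of -0.50 on the log2 scale with none called.

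Between inhibitor and vehicle in KO the members with the smallest p were Wnt3 (log2 difference 0.34, SE 0.29), Gsk3b (-0.08, SE 0.06) and Tcf7l2 (-0.13, SE 0.11). Wnt3 read 0.892, 1.33, 2.65 and 0.860 FPKM with vehicle and 0.999, 3.01, 2.16 and 1.48 FPKM with inhibitor. Its highest value lay with inhibitor and its next highest with vehicle, in KO vehicle 3, the library rich in spermatid genes. Of the members, 21 were higher and 11 lower, while 50.5% of all genes were higher. Libraries separated for 0 members, against 1.7% of all genes. The contractile list was higher by a median log2 of 0.65, with all 14 genes higher and none called.

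The effect of the inhibitor did not differ between genotypes past the threshold for any member. The interaction had its smallest p for Gsk3b (log2 -0.16, SE 0.09), Lef1 (-0.33, SE 0.21) and Fzd10 (0.37, SE 0.27), with a limma adjusted p = 0.9993 for each. Pooled over treatments, KO against WT gave 0.28 (SE 0.13) for Fzd10, -0.15 (SE 0.08) for Tcf7l2 and -0.08 (SE 0.05) for Gsk3b. Pooled over genotypes, inhibitor against vehicle gave -0.26 (SE 0.13) for Fzd10, 0.06 (SE 0.05) for Znrf3 and 0.11 (SE 0.12) for Dvl3. Libraries separated for 0 members in both pooled comparisons, against 0.0% and 0.00775% of all genes. Axin2 and Ctnnb1 stayed within 0.06 of 0 on the log2 scale in these 3 comparisons.

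The width of the intervals differed between members, also within a role: the SE was 0.51 for Fzd9 and 0.15 for Fzd3. In KO against WT with vehicle, the 95% interval lay within 1 on the log2 scale for 27 of 32 members and within 0.5 for 17. The corresponding counts were 27 and 15 for KO against WT with inhibitor, 28 and 17 for inhibitor in WT, and 28 and 18 for inhibitor in KO. The widest intervals were those of Fzd9, which reached from -1.65 to 0.54 for KO against WT with vehicle and up to 1.45 for inhibitor in KO. The groups accounted for 42.8% of the variance of Gsk3b and 43.3% of that of Fzd10, the largest shares among the 32 tested members. They accounted for 3.6% of that of Wnt5b, 5.5% of that of Fzd7 and 2.8% of that of Tcf7l1. Groups that do not differ also give some share, and no share over all genes was computed, so these values describe spread and are not a test.

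Genes around the pathway, outside the members, gave 0 calls in each comparison. Of 29 listed extracellular modulators, such as R-spondins and secreted inhibitors, 16 were tested. The 2 with the smallest p, for inhibitor against vehicle pooled over genotypes, were Rspo1, an R-spondin that strengthens Wnt signals, and Shisa6, which in undifferentiated spermatogonia is known as an inhibitor of Wnt signalling. Rspo1 averaged 1.29 ± 0.21 FPKM (SD, n = 4) in WT vehicle, 1.91 ± 0.542 in WT PD, 1.20 ± 0.322 in KO vehicle and 2.13 ± 0.176 in KO PD, a pooled log2 difference of 0.53 (SE 0.12, limma adjusted p = 1). Shisa6 averaged 0.871 ± 0.4, 0.488 ± 0.0555, 1.47 ± 0.553 and 0.755 ± 0.121 FPKM in the same order, a pooled log2 difference of -0.53 (SE 0.14, adjusted p = 1). Of the 16 modulators 11 were higher and 5 lower with inhibitor, while 54.4% of all genes were higher. Their median log2 difference was 0.06, against a median of 0.01 over all genes.

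Of 28 listed target genes, 13 that are not members were tested. T, the brachyury factor, averaged 8.99 ± 2.65 and 12.1 ± 2.31 FPKM (SD, n = 4) with vehicle and 5.83 ± 1.93 and 8.01 ± 1.88 with inhibitor in WT and KO, a pooled log2 difference of -0.59 (SE 0.18, limma adjusted p = 1). Sp5, a transcription factor induced by the pathway, had a log2 difference of 0.40 (SE 0.17, adjusted p = 0.998) for KO against WT pooled over treatments. In that comparison 6 of the 13 targets were higher and 7 lower, with a median of -0.01, while 44.1% of all genes were higher. For inhibitor against vehicle pooled over genotypes, where T was lower, most of the 13 targets were not. There 9 were higher and 4 lower, with a median of 0.06, while 54.4% of all genes were higher. Of 16 tested receptors and polarity genes of the routes without beta-catenin, Daam1, a formin that acts downstream of dishevelled, had the smallest p (-0.39, SE 0.15, adjusted p = 0.988, KO PD against WT PD), followed by the cadherin Celsr2 (0.23, SE 0.09, KO against WT pooled). Of 37 tested cofactors and regulators of beta-catenin, Cdc73 (-0.20, SE 0.08, KO against WT pooled) and Fbxw11, a ubiquitin ligase subunit (-0.13, SE 0.05, inhibitor in KO), had the smallest. Rspo1, Shisa6, T, Sp5, Daam1, Celsr2, Cdc73 and Fbxw11 were thus named by their p across the 7 comparisons.

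Many members varied widely between the libraries of a group, and they did so together. Wnt5b read 19.6, 28.3, 33.8 and 21.6 FPKM in WT vehicle, 13.0, 16.1, 44.9 and 31.0 in WT PD, 28.1, 16.8, 8.87 and 38.5 in KO vehicle, and 25.5, 13.1, 26.3 and 37.6 in KO PD. Fzd7 (chr1:59482424-59486955) read 7.71, 12.7, 16.9 and 10.8 FPKM in WT vehicle, 5.64, 5.16, 21.0 and 13.6 in WT PD, 10.2, 7.22, 7.16 and 19.2 in KO vehicle, and 11.4, 9.52, 11.8 and 17 in KO PD. Tcf7l1 (chr6:72626378-72789254) read 14.5, 17.6, 20.3 and 16.6, then 10.3, 10.6, 30.4 and 20.4, then 18.1, 13.0, 10.6 and 23.8, and last 15.7, 13.2, 19.1 and 25.8 FPKM in the same order of groups. All 3 genes were highest in WT PD 3, and each group held high and low libraries.

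WT PD 3 was also the library with the most contractile transcript. The mean log2(FPKM + 0.5) of the 14 contractile genes ran from 4.92 in WT PD 2 through 5.49 in WT PD 1 to 8.01 in KO PD 4 and 8.29 in WT PD 3, and Acta2, smooth muscle actin, from 366.8 to 5095.4 FPKM. Across the 16 libraries the level of 24 of the 32 members followed this mean, by permutation p-values of both Pearson's r and Spearman's rho adjusted over all 12893 tested genes outside the list. Of these, 19 were positive, against 29.5% of all genes, and 5 negative, against 20.0% of all genes. At r above 0.7 there were 16 members, or 50% of them, against 23.0% of all genes, and at r below -0.7 there were 2, or 6.2%, against 10.5%. Fzd7 had r 0.963 and rho 0.962, and Tcf7l1 r 0.941 and rho 0.935, each with a permutation p = 1e-05 for r, the smallest that 100000 permutations can give. Adjusted over all genes these p-values were 0.0001 for r and 8.58e-05 for rho.

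**Figure D3:**
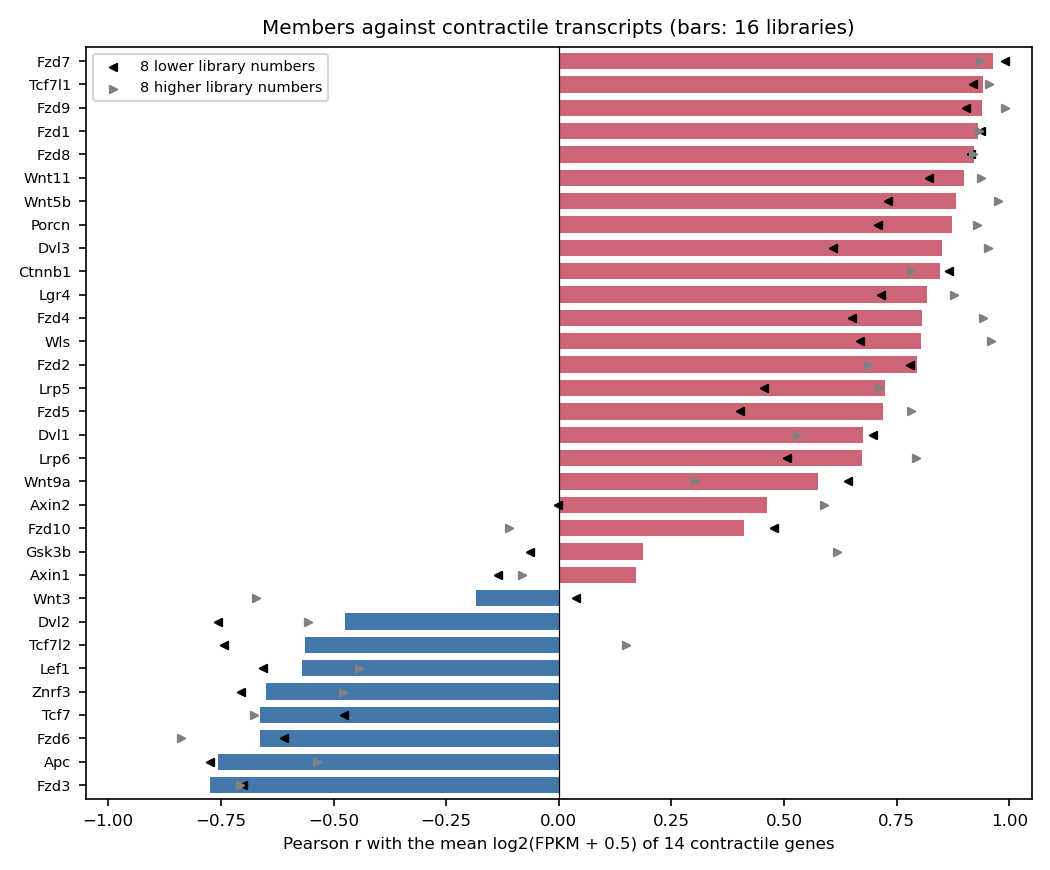
Pearson r over 16 libraries between log2(FPKM + 0.5) of each tested member and the mean of 14 contractile genes (bars), with r within the 8 lower and the 8 higher library numbers (triangles). Fzd7 at 0.963 and Tcf7l1 at 0.941 stand at the top, and Apc at -0.757 and Fzd3 at -0.775 at the bottom.

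The positive members covered most steps of the pathway. Among the receptors Fzd9 (r 0.938, rho 0.985), Fzd1 (0.931 and 0.947), Fzd8 (0.922 and 0.932), Fzd4 (0.805 and 0.824) and Fzd2 (0.794 and 0.879) joined Fzd7, with Fzd5 at r 0.720. The ligands Wnt11 (r 0.899, rho 0.876) and Wnt5b (0.881 and 0.921) and the secretion genes Porcn (0.873 and 0.912) and Wls (0.804 and 0.841) followed too. Inside the cell Dvl3 (r 0.851, rho 0.879), Ctnnb1 (0.845 and 0.90) and Dvl1 (0.675 and 0.809) were positive, as were the coreceptors Lrp5 (0.724) and Lrp6 (0.673), the R-spondin receptor Lgr4 (0.818) and the ligand Wnt9a (0.576). For these members the permutation p of r adjusted over all genes was at most 0.0411, that of Wnt9a.

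The steepness differed more than the correlation. For each unit of the contractile mean, which is on the log2 scale, Fzd9 was higher by 0.691 log2 units, Fzd8 by 0.605, Wnt5b by 0.568 and Fzd7 by 0.565. Tcf7l1 (0.430) and Wls (0.434) were less steep, and Ctnnb1 was higher by only 0.102, although its r was 0.845. Fzd9 spanned 6.326-fold between its lowest and highest library and Ctnnb1 1.377-fold.

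The 5 negative members were Fzd3 (r -0.775, rho -0.832), Apc (-0.757 and -0.791), Fzd6 (-0.663 and -0.738), Tcf7 (-0.662 and -0.765) and Znrf3 (-0.649 and -0.624). Tcf7 read 78.2, 70.4, 74.6 and 73.6 FPKM in WT vehicle, 81.6, 77.3, 58.9 and 71.1 in WT PD, 75.4, 86.8, 79.9 and 72.1 in KO vehicle, and 71.3, 86.6, 80.4 and 74.4 in KO PD. Its lowest library was WT PD 3, where Tcf7l1 was highest. The slopes were shallow, at -0.089 for Tcf7 and -0.143 for Apc. Fzd3 and Fzd7, both Frizzled receptors, thus went opposite ways across the same libraries.

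**Figure D4:**
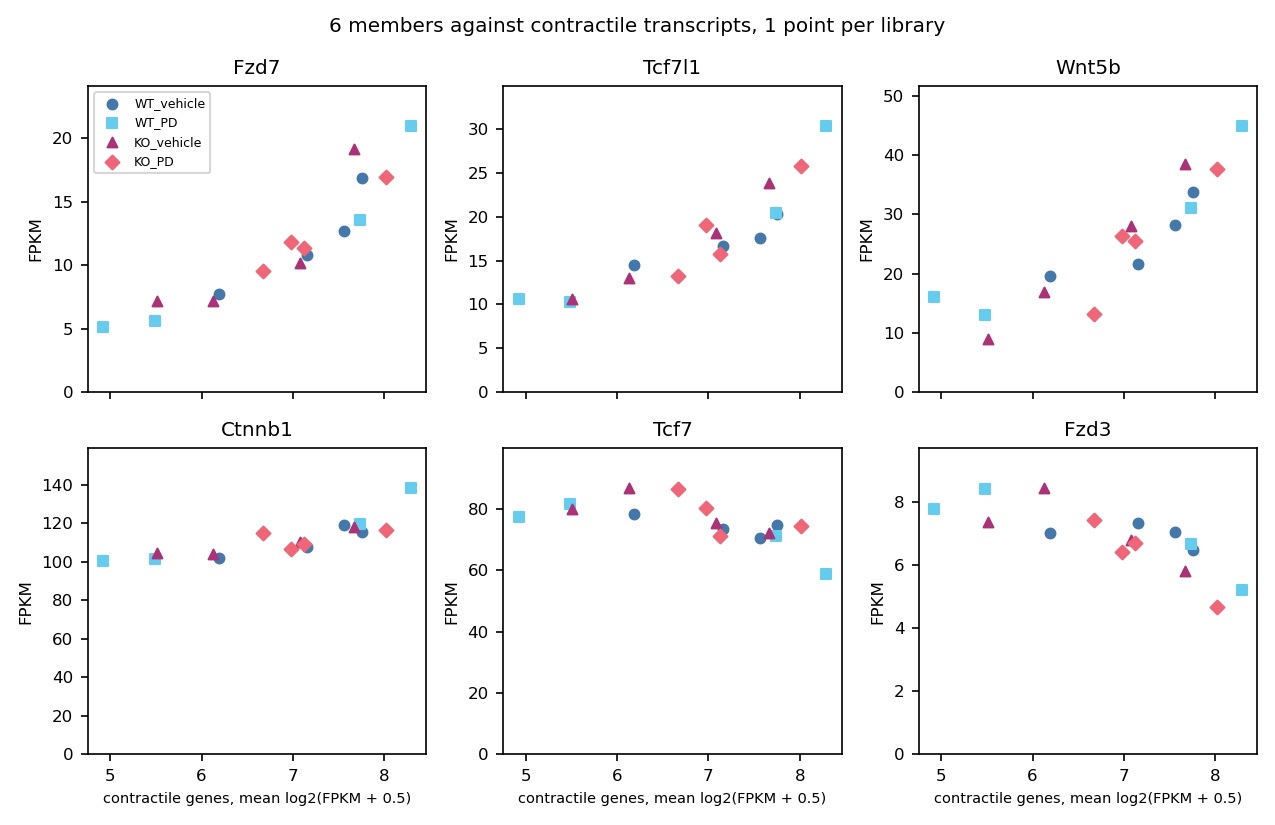
FPKM of 6 members against the mean log2(FPKM + 0.5) of 14 contractile genes, 1 point per library, with symbol and colour giving the group and each vertical axis starting at 0. Fzd7, Tcf7l1 and Wnt5b are high at the right, Ctnnb1 changes little, and Tcf7 and Fzd3 are low at the right.

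Some members did not follow the contractile list past the threshold. They were Axin2 (r 0.463, rho 0.438, adjusted p of r over all genes 0.118 by permutation), Fzd10 (r 0.412), Gsk3b (0.187), Axin1 (0.171), Wnt3 (-0.184), Dvl2 (-0.475), Tcf7l2 (-0.563) and Lef1 (-0.571), the last 2 of which passed on r and not on rho. Within the destruction complex Apc was thus lower in contractile-rich libraries, while Axin1, Axin2 and Gsk3b passed in neither direction. All 24 members that passed had the same sign of r within the 8 libraries with lower and the 8 with higher library numbers. These are parts of the same 16 libraries by which the members passed, so the shared sign is no independent check. Without the 2 libraries farthest from the median of the contractile mean, r was 0.941 for Fzd7, 0.929 for Tcf7l1, 0.923 for Wnt5b, 0.819 for Ctnnb1 and -0.740 for Tcf7. It weakened for others that had passed, to 0.444 for Wnt9a, 0.562 for Dvl1 and -0.525 for Znrf3.

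The scale of each library bears on these signs. The median of all tested genes was itself higher in contractile-rich libraries (r 0.885), and library medians lay between -0.091 and 0.151 of their common level on the log2 scale. With each library shifted to the same median, 13 members had r above 0.7 and 8 had r below -0.7. With quantile normalization the counts were 13 and 6, and Ctnnb1 turned from 0.845 to -0.479. The direction of Ctnnb1 thus depended on the scaling, while its change was small on each scale. Without KO vehicle 3, 17 members had r above 0.7 and 3 below -0.7. The share over all genes was not computed for these alternatives, so whether the members moved more than other genes was not tested.

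Other cell type lists gave related patterns. With 7 tested genes of a Sertoli list, whose 14 genes in the table summed to 25.1 to 68.3 FPKM, 14 members had r above 0.7, against 21.5% of all genes, and 3 had r below -0.7, against 8.98%. With 17 genes of undifferentiated spermatogonia, 2 members had r above 0.7, against 9.98% of all genes, and 13 had r below -0.7, or 40.6% against 23.4%. With 10 tested endothelial genes no member passed the threshold, and 0 of the 12897 genes outside the list did. No member had r beyond 0.7 in either direction, against 0.7% of all genes above 0.7 and 0.0% below -0.7. The endothelial genes did not share 1 order of libraries: Esam was highest in WT PD 3, at 53.9 FPKM, and Cldn5 in KO vehicle 3, at 14.8 FPKM. The genes of the Sertoli list did not move as 1: over the libraries Inha (r 0.962), Gata4 (0.960) and Kitl (0.863) followed the contractile mean, Wt1 (-0.702) and Trf (-0.479) went against it, and Clu (0.049) and Aard (0.403) did neither clearly. The mean of the Sertoli list had r 0.826 with the contractile mean. Of its other genes Sox9 stayed at 0.274 to 0.679 FPKM. Of 11 leukocyte genes in the table, summed to 4.7 to 25.0 FPKM, 2 passed the filter. They were Cd68, at 2.04 to 5.31 FPKM, and Lck, at 1.75 to 4.03 FPKM. Of those that did not pass, Ptprc reached at most 0.0331 FPKM, while Aif1 reached 13.6 FPKM in KO vehicle 3. Leydig and stromal lists were not correlated with the members. Some of their genes were higher in WT PD 3 than in WT PD 2, such as Lhcgr (24.1 against 1.77 FPKM) and Tcf21 (18.6 against 5.89). Others were lower, such as Star (0.573 against 0.954) and Col6a1 (10.5 against 19.4). Whether contractile or other cells carried the transcripts of Fzd7, Wnt5b or Tcf7l1 into the sorted fraction was not tested, since the libraries hold no separate cell types.

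With the contractile mean added as a term to the fit, members remained without a call, while more of them reached an unadjusted p under 0.05. In KO PD against WT PD there were 9 in place of 3, or 28.1% of the members, and over all genes the share at such a p was 17.5% in this fit. Of the 9, 7 were lower and 2 higher in KO. The smallest p was that of Lgr4, with a log2 difference of -0.35 (SE 0.08, limma unadjusted p = 0.000931, adjusted p = 0.135), followed by Lrp6 (-0.20, SE 0.06, adjusted p = 0.142), both of which act at the receptor, and Gsk3b (-0.18, SE 0.06, adjusted p = 0.175). The other lower ones were Wls (-0.53, SE 0.20), Fzd4 (-0.44, SE 0.19), Fzd9 (-0.38, SE 0.16) and Wnt11 (-0.33, SE 0.15), with adjusted p from 0.203 to 0.266. The higher ones were Tcf7 (0.18, SE 0.07, adjusted p = 0.206) and Fzd10 (0.40, SE 0.17, adjusted p = 0.264). Lgr4 and Lrp6 also had the smallest p for the interaction (-0.37, SE 0.12, and -0.23, SE 0.08, adjusted p = 0.511 for both). In this fit Spry4 was the 1 gene of the whole table called for KO against WT pooled over treatments, at -0.88 on the log2 scale with a limma adjusted p = 0.0322. The tally of signs moved with this term: 23 members were higher and 9 lower for KO against WT with vehicle, 7 and 25 with inhibitor, 23 and 9 for inhibitor in WT, and 8 and 24 for inhibitor in KO. The share of all genes that were higher was 54.7%, 40.8%, 58.5% and 40.7% in these comparisons. Lgr4, Lrp6, Tcf7, Wls, Fzd4, Fzd9 and Wnt11 were named here after their values were seen.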

How the data were processed

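The deposited values are FPKM, which the authors computed for each of the 16 polyA RNA libraries, per the labels. Per the submitters' processing notes, the tools were FastQC, edgeR 4.0.14 and STAR 2.7.10a and the builds mm10 and GRCm39, whose roles are not given. The sources used here do not state the read counter, gene lengths, strand setting or scaling between libraries, so reads of overlapping or antisense genes cannot be told apart. Of the symbols 96.3% matched 1 gene of GENCODE M21 (GRCm38), used for positions and exon lengths. The divisor of each library was the smallest that made low values whole: of the values below 100 reads, 93.0% to 94.3% then came within 0.1 of a whole count. Depth and a scaling factor cannot be told apart in it.

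Group means (1 term a group, no covariate) were compared on log2(FPKM + 0.5) by limma 3.58.1 (R 4.3.3) over the 12907 genes with at least 1 FPKM in at least 4 libraries. Benjamini-Hochberg adjustment ran over all of these genes. Differences on this scale understate the change of low genes. The fit was tested on simulated data. Members were also correlated with the mean of each of 4 cell type lists over 16 libraries, with 100000 permutations, two-sided. Adjusted over the 128 pairs of member and list, the same number of members, 24, passed for the contractile list as when adjusted over all genes, an adjustment added after the data were seen.

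In each comparison every called member, the 3 members with the smallest unadjusted p, Axin2 and Ctnnb1 were named, and of each list of pathway genes the called genes or the 2 with the smallest p. The members and lists were chosen with earlier results of these data known. Alternatives were other pseudocounts, no filter, a replicate block, a term for library number or for contractile transcripts, median scaling, quantile normalization, library weights, fits on the compared groups alone and each library left out. A fit without the 2 libraries whose values carry 9 decimals in place of 4 (WT vehicle 4 and WT PD 4) and one with contractile and spermatid terms were added after the data were seen.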

Additional observations from a re-analysis of the deposited data

Results flagged for a closer look

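Among 128 sets of 1 member in 1 group, 2 held a library far from the other 3, fewer than the 1 in 20 that chance gives. Gsk3b stood at 17.3 FPKM in KO PD 1, while the other KO PD libraries all lay at 15.7 FPKM. Fzd6 stood at 1.02 FPKM in WT vehicle 3, against 1.32 to 1.38 FPKM in the other WT vehicle libraries.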

How the results depend on the processing

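No member was called in any of the 7 comparisons under any alternative that was run, each single library left out included, and the smallest adjusted p of a named difference was 0.0628, for Tcf7l2 in KO PD against WT PD with library weights (-0.35). With the contractile term 1 gene, Spry4, was called for KO against WT pooled over treatments. The replicate numbers did not pair the libraries. Over 24 pairs of the same number the correlation of deviations ran from -0.53 to 0.73, with 10 above 0.1. Over 72 pairs of different numbers between groups it ran from -0.74 to 0.72, with 31 above 0.1. Of 16 libraries 5 correlated best with their own number. With the replicate block 0 genes and 0 members were called.

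Only the small differences of Axin2 and Ctnnb1 changed sign among the named ones. For Axin2 these were -0.025 (KO against WT, vehicle), -0.019 (inhibitor, WT) and 0.056 (interaction) without the 2 libraries with more decimals. With the contractile term they were -0.038 (KO against WT, inhibitor) and -0.014 (inhibitor, KO), with contractile and spermatid terms -0.006 and -0.022, and with library weights 0.116 (interaction). For Ctnnb1 the contractile term gave 0.039 (KO against WT, vehicle) and -0.030 (inhibitor, KO), and both terms 0.036 and -0.028. Quantile normalization gave 0.066 and -0.057, with 0.021 for pooled KO against WT and -0.012 for pooled inhibitor. Library weights gave 0.070 (KO against WT, inhibitor), -0.101 (inhibitor, WT), 0.106 (interaction), 0.018 and -0.048 (the pooled comparisons). The interaction was 0.001 with median scaling and 0.034 without the 2 libraries with more decimals.

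With 1 library left out, Axin2 ranged from -0.025 to 0.126 and Ctnnb1 from -0.065 to 0.010 for KO against WT with vehicle, and from -0.054 to 0.082 and -0.090 to 0.063 with inhibitor. For inhibitor in WT the ranges were -0.001 to 0.146 and -0.051 to 0.102, and for inhibitor in KO Axin2 ranged from -0.031 to 0.110. The interaction ranged from -0.113 to 0.038 and -0.065 to 0.088, pooled KO against WT from -0.006 to 0.070 and -0.058 to 0.019, and pooled inhibitor for Ctnnb1 from -0.007 to 0.070.

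For the contractile list, members with r below -0.7 went from 2 to 8 with median scaling, 6 with quantile normalization, and 2 to 4 with 1 library left out (4 without WT PD 4). Ctnnb1 turned to -0.479 with quantile normalization, Axin1 to -0.262 and -0.454, and Gsk3b to -0.448 and -0.404, with median scaling and quantile normalization. Gsk3b ranged from -0.014 to 0.319 with 1 library left out, lowest without WT PD 3. For the Sertoli list, members above 0.7 went from 14 to 9 with quantile normalization, and those below -0.7 from 3 to 5 with median scaling and 6 with quantile normalization. For undifferentiated spermatogonia, members above 0.7 went from 2 to 5 with either. For the endothelial list the count above 0.7 was 0 to 1 with 1 library left out, 1 without KO vehicle 3. The causes were not tested, and shares over all genes were not computed for these alternatives. The 8 members below 1 FPKM in all libraries were left out by the filter, and no difference in them is reported.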
